A study of Mus musculus with 4 samples.

Results

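DNA replication and S phase genes were followed as a module of 43 genes in sorted undifferentiated spermatogonia (A_undiff), the fraction of the mouse germline that holds the spermatogenic stem cells. The members were taken as listed symbols, and all 43 were found once in the gene list of every library, among 27514 genes common to the libraries. Cells were sorted as E-cadherin+, CD49f+ and c-KIT- from the testes of wild-type C57BL/6J adults of 6 to 8 weeks. CTRL mice were untreated, and BU mice were taken at day 10 after a single dose of 10 mg/kg busulfan, an alkylating drug that kills most spermatogonia. Each of 2 independent experiments gave 1 CTRL and 1 BU library, and each library pooled cells of 3 mice, so differences between mice cannot be seen.

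Replication starts when origins bound by ORC, CDC6 and CDT1 are licensed by loading of the MCM2 to MCM7 helicase. CDC45 and the GINS complex then activate the helicase, primase and DNA polymerases copy the strands, and PCNA, loaded by RFC, holds the polymerases on DNA. Many of these genes are transcribed by E2F factors as cells leave G1, and their transcripts therefore mark cells in or near S phase. The module also holds genes of nucleotide supply (Rrm1, Rrm2, Tyms, Tk1, Dut, with the uracil glycosylase Ung) and of chromatin assembly on new DNA (Chaf1a, Chaf1b, and Slbp, which binds histone mRNA).

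The libraries held 3261 (CTRL 1), 2019 (CTRL 2), 2090 (BU 1) and 1859 (BU 2) barcodes with between 21136369 and 53579969 UMIs. Of 9229 barcodes, the 7493 that had more than 1000 genes and less than 20% of UMIs from mitochondrial genes were kept. Kept cells held a median of 8051 and 9848 UMIs in CTRL 1 and BU 1, and of 30845 and 34023 in CTRL 2 and BU 2. The markers of undifferentiated spermatogonia Zbtb16, Sall4, Foxo1 and Ddx4 were all detected in every library, at 544 to 802 CPM (UMIs per 1000000) in sum. Zbtb16, Sall4 and Foxo1 were lower in BU within each experiment, with Foxo1 at 221 and 139 in CTRL and 123 and 71.3 in BU. Ddx4, at 231 and 322 in CTRL and 260 and 287 in BU, went opposite ways. CTRL 2 and BU 2 shared 677 barcodes (33.5% and 36.4% of theirs). Of the shared barcodes, 70 were kept in both libraries, and in all 70 the smaller copy held under 5% of the UMIs of the larger. Results were therefore also computed without them. The 6 spermatid genes, such as Prm1 and Tnp1, summed to 2805 and 17014 CPM in the CTRL libraries and to 1001 and 8691 in the BU libraries, so that CTRL exceeded BU in each experiment, and the 6 somatic genes summed to 14.9 to 130. Cells in which spermatid genes made up 1% or more of UMIs were left out in a second alternative, and the part of these transcripts in the results was not tested beyond that.

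The upstream sequences show what some members share besides function. RefSeq windows of 300 bases on GRCm38.p6, from 250 bases before to 50 after the start, were found for 33 members. At least 1 of the E2F words TTTCCCGC, TTTGGCGC, TTTCGCGC and TTTGCCGC, on either strand and with overlaps allowed, lay in 12 of the 33 (36.4%), against 2.60% of 27025 genes. CCAAT was present in 63.6% of the matched members and 41.1% of all genes, and the cell cycle elements TTTGAA and TTCGAA in 18.2% and 21.7%. A match is a description of letters and not a bound site. Upstream stretches of 4 members, each of 200 bases, are printed in the direction of transcription, with E2F words and CCAAT (or its complement) in capitals. Mcm5 and Mcm6 encode helicase subunits with several words, Pola1 is the polymerase that departed from the rest, and Rrm2 is the member with the largest fold change.
Mcm5, chr8:75109309-75109508, plus strand: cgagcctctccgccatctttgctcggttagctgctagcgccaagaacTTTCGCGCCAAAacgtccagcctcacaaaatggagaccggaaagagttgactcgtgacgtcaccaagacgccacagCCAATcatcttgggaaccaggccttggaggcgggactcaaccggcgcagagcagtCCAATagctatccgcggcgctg
Mcm6, chr1:128359706-128359905, minus strand: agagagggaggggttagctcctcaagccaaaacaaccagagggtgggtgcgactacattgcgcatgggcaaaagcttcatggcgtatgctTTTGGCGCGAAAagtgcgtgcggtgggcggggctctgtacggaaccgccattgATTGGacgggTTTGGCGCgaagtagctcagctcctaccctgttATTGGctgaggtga
Pola1, chrX:93632156-93632355, minus strand: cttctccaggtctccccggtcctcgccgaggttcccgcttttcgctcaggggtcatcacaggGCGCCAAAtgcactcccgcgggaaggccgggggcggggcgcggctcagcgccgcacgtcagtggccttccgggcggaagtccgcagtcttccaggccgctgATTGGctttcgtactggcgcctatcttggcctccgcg
Rrm2, chr12:24708054-24708253, plus strand: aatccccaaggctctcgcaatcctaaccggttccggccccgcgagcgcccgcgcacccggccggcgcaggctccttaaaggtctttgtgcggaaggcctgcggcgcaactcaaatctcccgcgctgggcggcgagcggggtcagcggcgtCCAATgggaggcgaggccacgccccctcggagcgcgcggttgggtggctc
The stretch of Mcm6 held 3 E2F words, that of Mcm5 2 and that of Pola1 1. None of the 4 words was in the stretch of Rrm2, which held 1 CCAAT.

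The module took a larger share of UMIs in BU than in CTRL cells in both experiments. Over all passing cells the 43 genes gave 0.455% of UMIs in CTRL 1, against 0.626% in BU 1, whereas CTRL 2 held 0.343% and BU 2 0.471%. The ratio of BU to CTRL was 1.37 in experiment 1 and 1.38 in experiment 2. The mean was 0.399% ± 0.0798 (SD, n = 2) in CTRL and 0.548% ± 0.109 (SD, n = 2) in BU. BU 2 lay close to CTRL 1, so that the difference shows within experiments more clearly than between the group means. No p is given for a share over chosen genes. With cells of 1% or more spermatid UMIs left out the shares were 0.463%, 0.371%, 0.628% and 0.491% in the same order as the libraries above (CTRL 1, CTRL 2, BU 1, BU 2).

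Cells were then grouped by the marker genes of their state. Gfra1 encodes the GDNF receptor of stem cells, Sox3 marks progenitors, Stra8 marks cells responding to retinoic acid, and Kit is the receptor gained on differentiation. A cell was called positive where the natural log of 1 plus UMIs per 100000 was above 2, a level that 1 UMI reaches in cells of fewer than 15652 UMIs, so a positive call needs more UMIs in experiment 2. Positive cells numbered 585, 214, 866 and 529 for Gfra1, 1470, 646, 473 and 265 for Sox3, 610, 163, 827 and 313 for Stra8, and 36, 37, 322 and 156 for Kit, in CTRL 1, CTRL 2, BU 1 and BU 2. The sort removed cells with c-KIT on their surface, so that Kit+ cells are those with Kit mRNA within the gate. A cell could be in several classes.

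**Figure D1:**
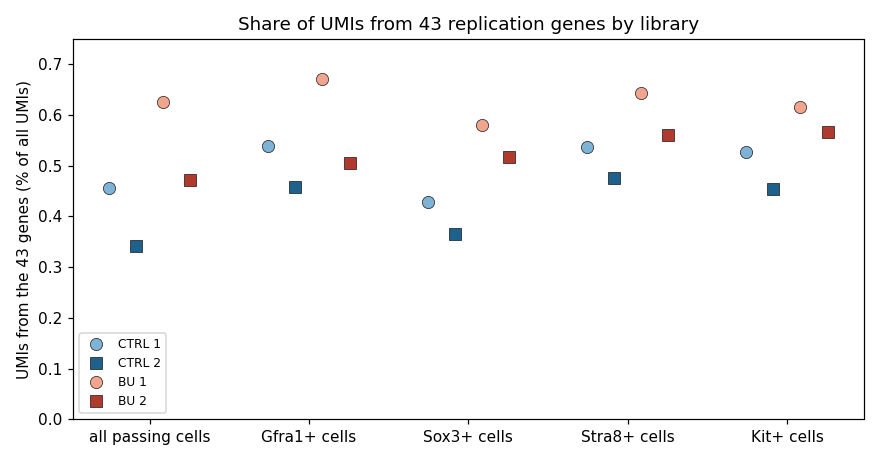
The share of UMIs from the 43 genes (y axis, percent, from 0) is plotted for all passing cells and 4 marker classes, with 1 point per library (circles, experiment 1; squares, experiment 2). BU points lie above the CTRL point of the same experiment in every population, with the smallest gap in Gfra1+ cells of experiment 2 (0.457% and 0.505%).

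In each class the module share was higher in BU than in CTRL within both experiments. Sox3+ cells gave 0.428% and 0.365% in the CTRL libraries and 0.581% and 0.518% in the BU libraries, and both BU values were above both CTRL values. The BU to CTRL ratio in Sox3+ cells was 1.36 in experiment 1 and 1.42 in experiment 2. Cells above the threshold for Sox3 and none of the other marker genes numbered 1062 and 487 in CTRL and 135 and 90 in BU. In those cells the shares were 0.398% and 0.342% in CTRL and 0.480% and 0.441% in BU. The part of cells in several classes in the Sox3+ difference was not tested. Gfra1+ cells gave 0.540% and 0.457% in CTRL and 0.670% and 0.505% in BU, with ratios of 1.24 and 1.11 and with BU 2 below CTRL 1. Stra8+ cells gave 0.538% and 0.475% in CTRL and 0.644% and 0.560% in BU, with ratios of 1.20 and 1.18. Kit+ cells gave 0.528% and 0.454% in CTRL and 0.615% and 0.567% in BU, with ratios of 1.17 and 1.25. Among CTRL cells the Sox3+ class had the lowest share of the 4 classes in each library. Leaving out BU 1 reduced the difference of group means in Gfra1+ cells from 0.0892 to 0.00692 percentage points.

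**Figure D2:**
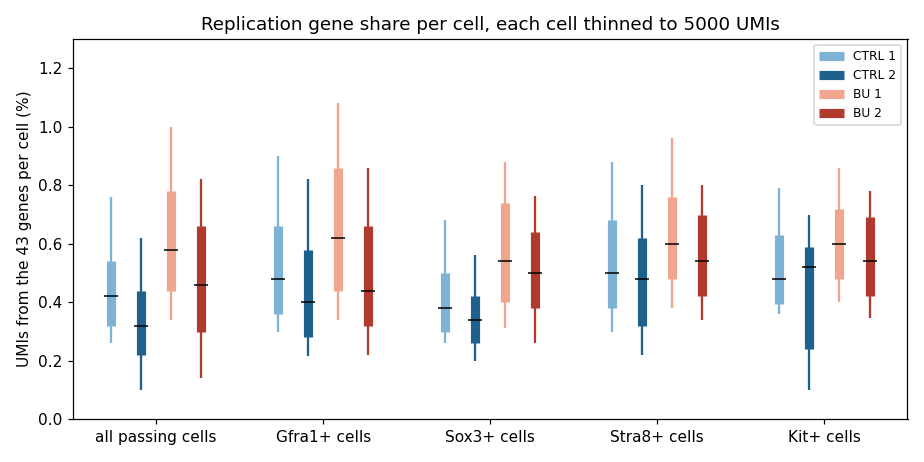
For each population and library, the median (black mark), the middle 50% of cells (thick line) and the 10th to 90th percentile (thin line) of the module share per cell are drawn, with each cell thinned to 5000 UMIs. The median over all passing cells was 0.42% (CTRL 1), 0.32% (CTRL 2), 0.58% (BU 1) and 0.46% (BU 2).

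Per cell, the upper end of the distribution differed as well as the median. After thinning each cell to 5000 UMIs, which left out 276, 114, 80 and 95 shallower cells (CTRL 1, CTRL 2, BU 1, BU 2), the module held 0.8% of UMIs or more (40 of 5000) in 9.24% of 2825 cells in CTRL 1, 4.17% of 1006 in CTRL 2, 23.5% of 1928 in BU 1 and 12.4% of 1169 in BU 2. Without thinning these were 8.22%, 4.11%, 22.8% and 9.26%. The level of 0.8% was chosen after seeing the data and marks a range and not a cell type. Among Gfra1+ cells such cells made up 14.2% and 10.5% in CTRL and 31.0% and 13.3% in BU. Among Sox3+ cells they made up 6.44% and 2.66% in CTRL and 17.8% and 8.46% in BU. Among Stra8+ cells they made up 16% and 11.1% against 21.9% and 11.3%, nearly level in experiment 2. Kit+ cells gave 11.1% and 6.45% against 15.0% and 9.68%, and without thinning 8.33% and 8.11% against 14.0% and 3.85%, the opposite order in experiment 2. The 10 mitosis genes (such as Mki67 and Top2a) summed to 730 and 797 CPM in CTRL and 1654 and 1498 in BU. In cells with 1 to 4 mitosis UMIs of 5000 the mean module share was 0.445% (CTRL 1) and 0.349% (CTRL 2) against 0.593% (BU 1) and 0.506% (BU 2). In cells with 5 or more it was 0.579% and 0.477% against 0.658% and 0.534%, and in cells with none 0.376% and 0.178% against 0.433% and 0.219%, so that the BU mean was above the CTRL mean of the same experiment in each of the 3 strata. The medians in cells with none were 0.36% and 0.12% against 0.44% and 0.1%, with BU 2 below CTRL 2.

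**Figure D3:**
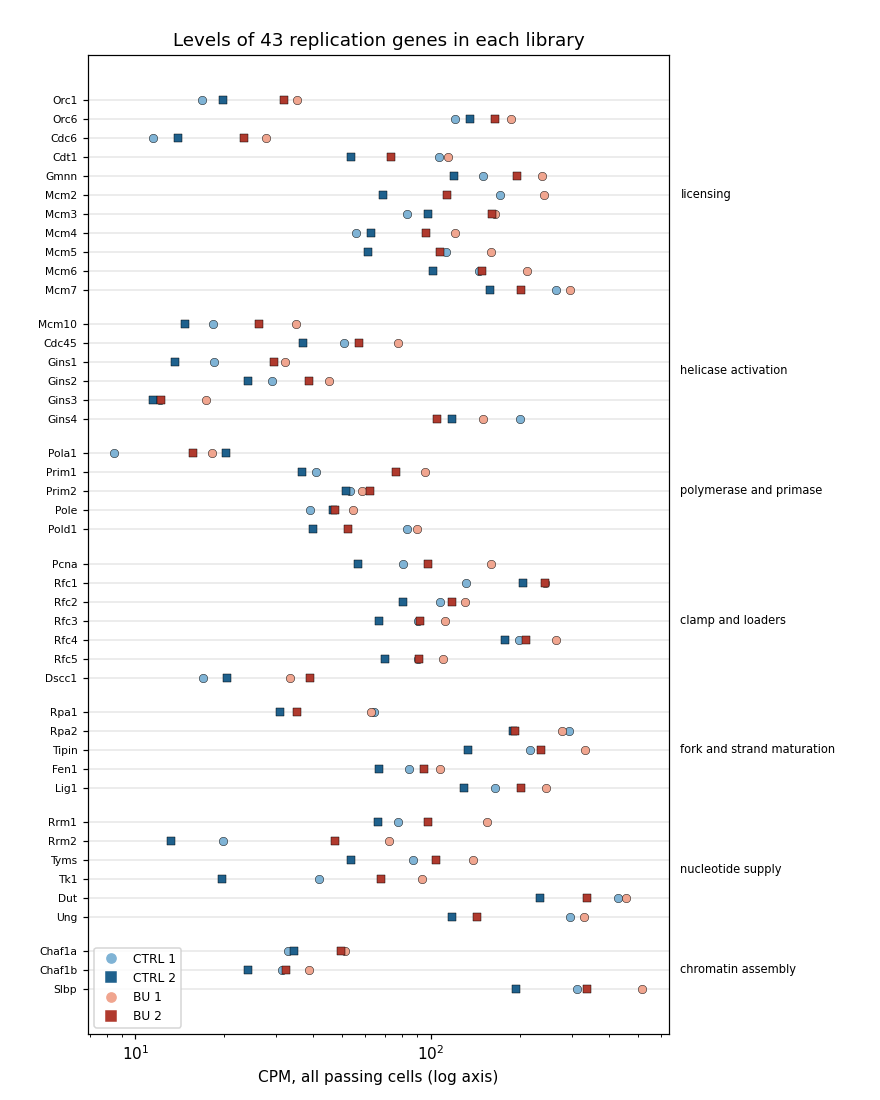
Each row is 1 of the 43 genes, grouped by role, and each point is the level in 1 library over all passing cells, in CPM on a log axis (circles, experiment 1; squares, experiment 2). In 32 of the 43 rows both BU points lie right of both CTRL points; Gins4 is the row with CTRL above BU within each experiment.

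Member by member, 39 of 43 were higher in BU than in CTRL within both experiments, 1 (Gins4) was lower in both, and 3 (Pola1, Rpa1 and Rpa2) went opposite ways. The share of all genes higher within both experiments was not computed, here or for the roles below. Both BU libraries exceeded both CTRL libraries for 32 members and in no case lay below them, where 19.9% of 17354 genes tested lay above and 13.5% below. The median log2 fold change of the members was 0.56, against 0.07 over all genes tested. The library counts were tested with edgeR's quasi-likelihood test and Benjamini-Hochberg adjustment over all genes. With condition as the only term, no member passed an adjusted p of 0.05 in any population, and 0% of all genes were called in each (9 members had an unadjusted p under 0.05 in all passing cells, 1 in Gfra1+, 19 in Sox3+, 3 in Stra8+ and 2 in Kit+ cells, against 5.34%, 4.30%, 14.1%, 9.47% and 8.24% of all genes). DESeq2 called 0, 0, 2, 0 and 0 in the same populations, where it called 0.484%, 0.0711%, 1.52%, 0.603% and 0.336% of all genes.

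The libraries of an experiment deviated together, and the labels say that each experiment shared its kit. With the experiment as replicate block, 2 members were called in all passing cells where 1.49% of 17354 genes were called (0.64% higher in BU), 15 in Sox3+ cells where 7.34% of 14447 were (3.47% higher), and 2 in Stra8+ cells where 7.18% of 13510 were (2.51% higher). None was called in Gfra1+ cells (0.0734% of 13632) or Kit+ cells (0.952% of 11030), with 10 and 4 members at an unadjusted p under 0.05 (11.8% and 12.2% of all genes). Every member called was higher in BU. In Stra8+ cells the members called were 2 of 43, near that background. Without the cells of 1% or more spermatid UMIs the counts were 0 in all passing cells (where no gene was called), 1 in Gfra1+, 6 in Sox3+, 1 in Stra8+ and 0 in Kit+ cells (0.281%, 4.65%, 2.83% and 2.8% of genes in the classes). Without the shared barcodes they were 6, 1, 15, 2 and 0, where 9.62%, 0.294%, 8%, 9.17% and 3.88% of genes were called.

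The 11 licensing genes were all higher in BU in both experiments over all passing cells, with a median log2 fold change of 0.62 and a range from 0.23 (Cdt1) to 1.01 (Cdc6). Cdc6, the loader that brings CDT1 and MCM to the origin, stood at 11.5 and 13.9 CPM in CTRL 1 and CTRL 2 and at 27.7 and 23.4 in BU 1 and BU 2. Its groups did not overlap. Gmnn, the inhibitor of CDT1 that stops a second licensing, stood at 150 and 120 in CTRL and 237 and 195 in BU. The licensing partner Cdt1 itself stood at 107 and 53.8 in CTRL and 114 and 73.3 in BU, with overlapping groups. Mcm7, the helicase subunit with the highest level, stood at 265 and 159 in CTRL and 294 and 202 in BU, so that its libraries differed more by experiment than by treatment. Of Mcm2 to Mcm7, all 6 were higher in both experiments (median log2 fold change 0.59), and Mcm4 moved most within them, from 55.7 and 62.9 to 121 and 96.4. With the block, 6 of the 11 rose in Sox3+ cells: Cdc6, Gmnn, Mcm3, Mcm4, Orc1 and Mcm2.

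Helicase activation genes were split. Mcm10, Cdc45, Gins1, Gins2 and Gins3 were higher in BU in both experiments, whereas Gins4 was not. Gins1 stood at 18.4 and 13.6 CPM in CTRL and 32.1 and 29.4 in BU. Gins4 (chr8:23226616-23237659, minus strand, GRCm38), the fourth subunit of the same complex, stood at 200 and 117 in CTRL and 150 and 105 in BU. Its log2 difference was -0.41 in experiment 1 and -0.16 in experiment 2, and its log2 fold change with the block was -0.29 ± 0.19 (SE; adjusted p = 0.457). The other 3 GINS genes ran between 11.5 and 45.1 in the same libraries. In Sox3+ cells Gins4 was also lower in BU, at 213 and 144 against 153 and 118 (log2 -0.38 ± 0.15, adjusted p = 0.162 with the block), whereas Gins1 and Gins2 rose.

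Polymerase and primase genes had the lowest median of the 7 roles, a log2 fold change of 0.24 over 5 genes. Prim1 (chr10:128015168-128030037), the catalytic primase subunit, stood at 40.9 and 36.6 CPM in CTRL and 95.7 and 76.2 in BU, while its partner Prim2 stood at 53.3 and 51.8 in CTRL and 58.4 and 62.2 in BU. Prim1 gave a log2 fold change of 1.14 ± 0.22 with the block (adjusted p = 0.0549) in all passing cells and rose in Sox3+ cells. Pola1 (chrX:93304767-93632155, minus strand), the catalytic subunit of the polymerase that primes each fragment, stood at 8.49 in CTRL 1 but at 20.2 in CTRL 2, and at 18.2 and 15.6 in BU. CTRL 1 was the lowest library for Pola1 in each of the 5 populations. The classes overlap and are parts of all passing cells, and in Kit+ cells the CTRL 1 value rests on 3 UMIs. Pole and Pold1 gave log2 fold changes of 0.25 and 0.21, both below the member median.

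All 7 genes of the clamp and its loaders were higher in both experiments. Pcna, the sliding clamp, stood at 80.7 and 56.4 CPM in CTRL and 160 and 97.6 in BU. The 5 subunit genes Rfc1 to Rfc5 had log2 fold changes of 0.33 to 0.53, and Dscc1, part of an alternative loader linked to cohesion, one of 0.96, from 16.9 and 20.4 in CTRL to 33.4 and 38.8 in BU. Pcna and Dscc1 rose in Sox3+ cells with the block.

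Among fork and strand maturation genes, Tipin, Fen1 and Lig1 were higher in both experiments and the single-strand binding genes Rpa1 and Rpa2 were not. Rpa2 stood at 293 and 189 CPM in CTRL and 278 and 193 in BU, and Rpa1 at 64.1 and 30.8 in CTRL and 62.4 and 35.3 in BU. For both genes the difference between experiments was larger than that between groups. Lig1, which joins fragments of the lagging strand, stood at 164 and 130 in CTRL and 245 and 201 in BU, and Tipin, a fork protection gene, at 217 and 133 in CTRL and 333 and 235 in BU. No member of this group passed the test of BU against CTRL in any of the 5 populations.

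**Figure D4:**
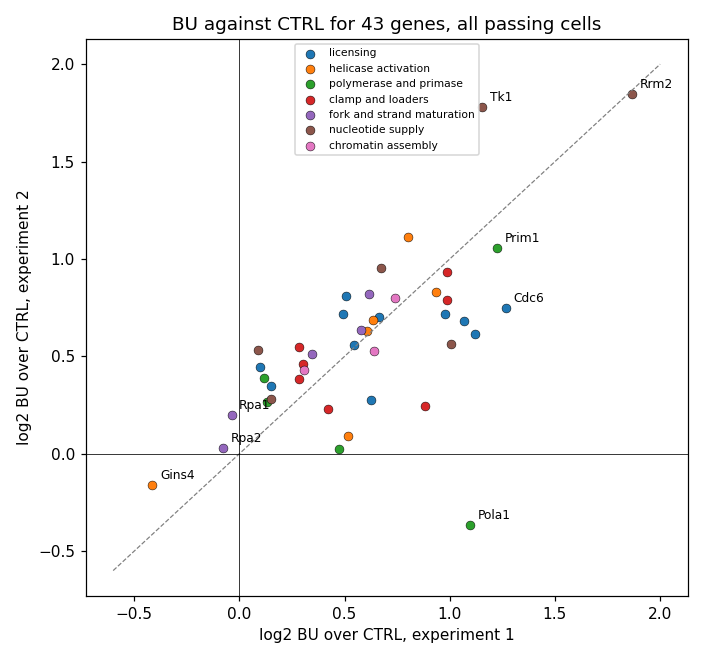
Each point is 1 of 43 genes, with its log2 ratio of BU to CTRL over all passing cells in experiment 1 (x axis) and in experiment 2 (y axis), coloured by role; the dashed line marks equal ratios. Rrm2 lies at 1.86 and 1.84, Tk1 at 1.15 and 1.78, Gins4 below 0 on both axes and Pola1 at 1.10 and -0.37.

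Nucleotide supply had the highest median of the 7 roles, a log2 fold change of 0.80. Rrm2 (chr12:24708241-24714146, plus strand), the regulated subunit of ribonucleotide reductase, stood at 19.8 and 13.2 CPM in CTRL and 72.0 and 47.5 in BU. All BU values were above all CTRL values, and the log2 fold change with the block was 1.85 ± 0.24 (SE; edgeR adjusted p = 0.0289). Tk1 (chr11:117815526-117826092, minus strand), the thymidine kinase of the salvage pathway, stood at 41.9 and 19.7 in CTRL and 93.3 and 67.6 in BU, with a log2 fold change of 1.47 ± 0.25 (adjusted p = 0.0453). Rrm1, the large subunit of the same reductase, stood at 77.3 and 66.1 in CTRL and 155 and 97.7 in BU. Tyms stood at 87.0 and 53.5 in CTRL and 139 and 104 in BU. Dut, which holds dUTP low, stood at 430 and 234 in CTRL and 457 and 338 in BU, and Ung at 296 and 118 in CTRL and 329 and 143 in BU, so that experiments differed more than groups for both. In the population of Stra8+ cells Rrm2 and Tk1 were the members called with the block, at log2 fold changes of 1.16 ± 0.25 (adjusted p = 0.00544) and 0.97 ± 0.25 (adjusted p = 0.0154). In Gfra1+ cells Rrm2 stood at 29.1 and 24.3 in CTRL and 85.4 and 58.8 in BU, with a log2 fold change of 1.41 ± 0.23 that missed the threshold (adjusted p = 0.0549).

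Chromatin assembly genes were higher in both experiments, with Slbp at 311 and 193 CPM in CTRL and 519 and 337 in BU. Chaf1a and Chaf1b gave log2 fold changes of 0.58 and 0.36. In Kit+ cells Chaf1b was instead at 57.2 and 30.6 in CTRL and 22.5 and 20.2 in BU (log2 -0.94 ± 0.43, adjusted p = 0.400 with the block). Both BU values lay below both CTRL values, as they did for 18.7% of 11030 genes tested in Kit+ cells. The CTRL values of Chaf1b there rest on 18 and 34 UMIs. Of the 8 members with the highest level (Dut, Slbp, Rpa2, Mcm7, Tipin, Ung, Rfc4 and Rfc1), Rfc1 stood at 132 and 205 in CTRL and 242 and 243 in BU, and Rfc4 at 199 and 178 in CTRL and 266 and 209 in BU.

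**Figure D5:**
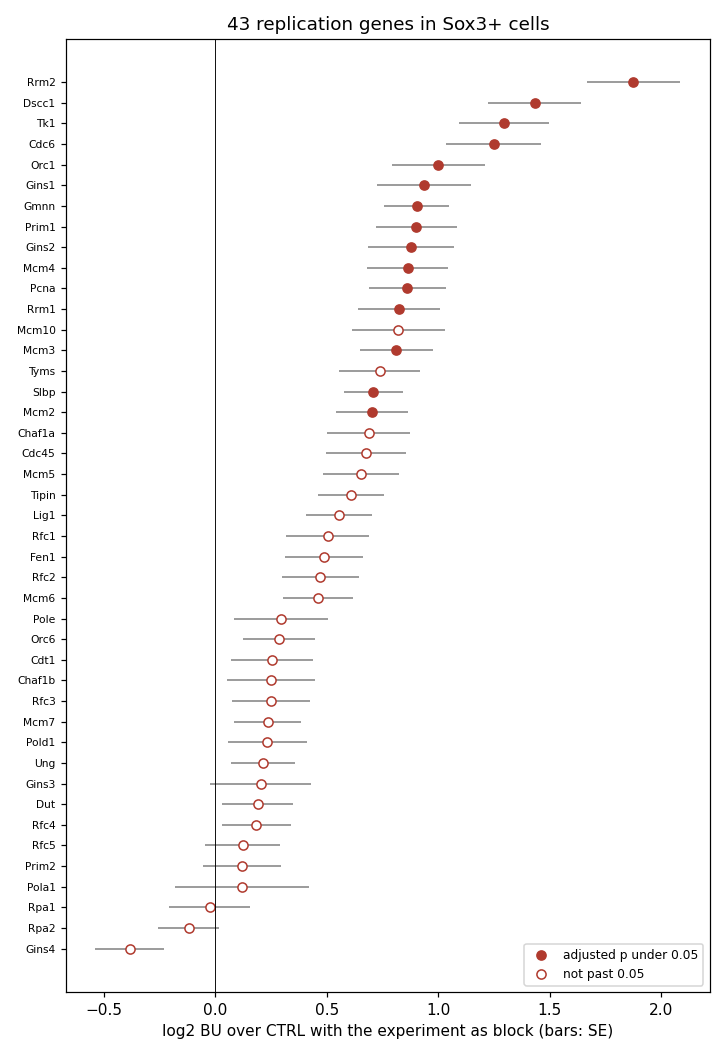
The log2 fold change of BU over CTRL in Sox3+ cells, with the experiment as block, is plotted for the 43 genes in order of size, with bars for the standard error. Filled points are the 15 genes past an adjusted p of 0.05, from Mcm2 (0.70) to Rrm2 (1.88), and Gins4 is the lowest point (-0.38).

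In Sox3+ cells 15 members rose with the block. Rrm2 stood at 15.6 and 11.1 CPM in CTRL and 51.5 and 44.9 in BU (log2 1.88 ± 0.21, adjusted p = 0.0145). Dscc1 stood at 12.2 and 12.2 in CTRL and 33.1 and 32.9 in BU (log2 1.43 ± 0.21, adjusted p = 0.0202), and Cdc6 at 10.1 and 14.7 in CTRL and 25.6 and 33.0 in BU (log2 1.25 ± 0.21, adjusted p = 0.0269). Gmnn stood at 152 and 138 in CTRL and 270 and 271 in BU. Slbp stood at 263 and 207 in CTRL and 428 and 340 in BU. All 5 had BU values above both CTRL values, as 29 of the 43 members did in Sox3+ cells, where 23.8% of genes tested did. Tk1, Pcna, Prim1, Mcm3, Orc1, Mcm4, Gins2, Rrm1, Gins1 and Mcm2 were also called, with log2 fold changes of 0.70 (Mcm2) and above, all below that of Dscc1. Markers of cell state moved in the same fit, where 7.34% of all genes were called (3.47% higher). Of 8 SSC markers 4 rose (Nefm, Lhx1, Egr2 and Gfra1, with a list median of 1.25). Of 5 differentiating markers 4 rose (Kit, Stra8, Dmrtb1 and Prdm9, median 2.00), and all 4 progenitor markers tested beside Sox3 fell (Upp1, Neurog3, Ddit4 and Rarg, median -1.67). Of the 10 mitosis genes 5 rose and 0 fell (median 1.24). Of 6 spermatid genes 4 fell (median -1.26), and of 4 undifferentiated markers 1 fell (median -0.45). The part of these lists in the rise of the 15 members was not tested. The 6 members left without cells of 1% or more spermatid UMIs were Rrm2, Dscc1, Tk1, Gmnn, Cdc6 and Slbp. With condition as the only term, no member was called in Sox3+ cells with the 4 libraries. Leaving out 1 library left 1 sample in a group, so calls from those fits are not read as results about the members.

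To compare the states with each other, cells above the threshold for exactly 1 of the 4 marker genes were summed per library, and classes were tested with the library as block. In Sox3-only cells 14 members were lower than in Gfra1-only cells and 0 were higher, where 20% of 11772 genes were called (10.3% lower). The members' median log2 difference was -0.30, against -0.01 over all genes. The largest was that of Rrm2, at -1.32 ± 0.18 (adjusted p = 8.2e-05), which stood at 30.6, 24.4, 89.3 and 64.0 CPM in Gfra1-only cells of CTRL 1, CTRL 2, BU 1 and BU 2 and at 13.2, 7.96, 38.1 and 28.5 in Sox3-only cells. Tk1 differed by -1.25 ± 0.17 and stood at 88.6, 50.9, 122 and 99.4 against 26.8, 16.7, 68.7 and 55.0. Prim1 differed by -1.09 ± 0.14 and Pcna by -0.77 ± 0.12, and Rfc2, Mcm10, Mcm5, Tyms, Gins1, Rrm1, Tipin, Mcm4, Slbp and Mcm3 by -0.43 to -0.69. The members called numbered 4 without CTRL 1 and without the block (Rrm2, Tk1, Prim1 and Pcna each time). They numbered 5 without BU 1, and 2 (Rrm2 and Tk1) when any UMI of the marker defined a class. The share of all genes is not given here for these settings, so the counts alone do not tell such a change from a general change in calls.

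In Stra8-only cells 3 members differed from Gfra1-only cells, where 8.37% of genes were called. The members were thus called no more often than genes in general. Gmnn was higher (0.92 ± 0.24, adjusted p = 0.0253), at 246, 272, 293 and 339 CPM against 135, 130, 181 and 164, and Cdc6 was higher (0.59 ± 0.17, adjusted p = 0.0414). Tk1 was lower (-0.59 ± 0.17, adjusted p = 0.0451). The count was 0 without CTRL 1, BU 1 or BU 2 and 7 without CTRL 2. In Kit-only cells 8 members differed, 1 higher (Orc1) and 7 lower (Prim1, Tk1, Gins1, Gins4, Chaf1b, Mcm10 and Mcm6), where 27.3% of genes were called. Here the share of members called was below that of all genes. Orc1 stood at 0, 19.4, 51.1 and 68.4 CPM in Kit-only cells of CTRL 1, CTRL 2, BU 1 and BU 2. In Gfra1-only cells it stood at 21.4, 21.1, 31.1 and 33.9, so it was higher in Kit-only cells in the BU libraries only. The Kit-only sums of CTRL 1 and CTRL 2 held 4 and 10 cells. The Kit-only count ran from 2 without BU 1 to 14 without CTRL 2 and was 4 without BU 2. For these counts, and for those of Stra8-only cells with a library left out, no share of all genes is given. The counts alone do not tell such a change from a general change in calls.

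The BU effect itself was not shown to differ between Gfra1-only and the Sox3-only or Stra8-only cells. The interaction of class and condition called 0 members for Sox3-only cells (0.306% of genes; 6 members, against 7.59% of genes, had an unadjusted p under 0.05) and 0 for Stra8-only cells (0.00849% of genes; 4 members, against 5.48% of genes). For Kit-only cells it called 7 members, all with a larger BU effect, where 11.5% of genes were called (5.62% in that direction) and the median over all genes was 0.29. The count was 0 without CTRL 2 and without BU 2. In the 10 Kit-only cells of CTRL 2 the module share was 0.132%, against 0.689% in the 4 of CTRL 1. Of those 10 cells, the 3 with a Zbtb16 or Sall4 UMI held 194614 of the 220811 UMIs.

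Across cells of 1 library, the level of each member was compared with the share of the other 42, in cells thinned to 5000 UMIs. These correlations share library and depth and are given as descriptions, over 2825, 1006, 1928 and 1169 cells. The mean Pearson r over the libraries was highest for Lig1 (0.42), Slbp (0.41) and Mcm6 (0.37), and lowest for Rpa1 (0.09), Pole (0.08) and Gins3 (0.07). Before thinning, Lig1 held 4262 to 10577 UMIs per library, Rpa1 1230 to 1852, Pole 1013 to 2493 and Gins3 314 to 643. Rrm2, with 512 to 2493 UMIs, had a mean r of 0.32. The part of a member's level in its r was not tested. Genes outside the module with the highest mean r were Ptma (0.50), Pclaf (0.48), Hmgb2 (0.41), Stmn1 (0.40), Prdx1 (0.39), Hells (0.38), Anp32b (0.37) and Cirbp (0.37). Some of these means hide wide differences between libraries. For Prdx1 and Anp32b r ran from 0.20 (BU 1) to 0.52 (CTRL 2), and for Stmn1 from 0.26 (BU 1) to 0.55 (BU 2). For Pclaf it ran from 0.41 (BU 2) to 0.53 (CTRL 1). Pclaf encodes a PCNA-binding factor and Hells a chromatin remodeller.

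Replication genes outside the 43 were read from a list of 45, with a list of 15 regulators. In all passing cells 3 of the 45 rose and 0 fell with the block (Pclaf, Uhrf1 and Nasp), where 0.64% of all genes rose. Without the block 38 had a log2 fold change above 0, and the list's median was 0.45 against 0.07 over all genes. Pclaf gave a log2 fold change of 1.74 ± 0.22 (adjusted p = 0.0289), Uhrf1, which recruits the maintenance DNA methyltransferase, 1.26 ± 0.19, and Nasp, a histone chaperone, 0.94 ± 0.17. In Sox3+ cells 11 of the 45 rose and 0 fell (3.47% of all genes rose), among them Nasp (1.17 ± 0.13), Uhrf1, Pclaf, Pold4, Hells, Clspn and Dnmt1. In Stra8+ cells 6 of the 45 rose and 0 fell (Pold4, Atad5, Nasp, Hells, Pclaf and Uhrf1), where 2.51% of all genes rose. None of the 45 passed in Gfra1+ or Kit+ cells. Of the 15 regulators, 6 rose in Sox3+ cells and 0 fell, where 3.47% of all genes rose. The 6 were E2f8 (1.96 ± 0.26), Ccne1 (1.60 ± 0.23), Ccne2 (1.48 ± 0.24), Cdc25a (1.35 ± 0.22), E2f2 (1.74 ± 0.39) and Ccna2 (0.94 ± 0.17). None of the regulators passed in the other 4 populations, where the lists' medians were still above those of all genes. The SSC markers summed to 248 and 195 CPM in CTRL and 530 and 586 in BU, and the progenitor markers to 468 and 385 in CTRL and 98.0 and 83.4 in BU. The differentiating markers summed to 135 and 153 in CTRL and 310 and 294 in BU. The part of this change in the mix of cells was not tested. The markers also moved within Sox3+ cells, and the part of the mix of cells in the within-class values was not tested either.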

How the data were processed

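Droplet single-cell RNA-seq was analysed in 4 libraries. The authors deposited UMI counts per gene and cell as filtered Cell Ranger output (version 3.0.2 per the file headers). The labels name GRCm39 and kit version 3.1 for experiment 2, where the paper's methods name an earlier mouse build and 1 kit version for all libraries, so coordinates here are those of GENCODE M21 and RefSeq on GRCm38, matched by gene identifier or symbol. The labels also name Seurat 3.2. Reads that map equally well to near-identical copies are commonly discarded before counting, and their part was not tested.

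From the deposited counts, barcodes above 1000 genes and below 20% of mitochondrial UMIs were kept as cells. UMIs were summed per library and population, filtered with filterByExpr (all 43 members passed in each population) and tested with edgeR 4.0.16 (R 4.3.3, glmQLFTest, TMM, Benjamini-Hochberg, 0.05). Levels of members are TMM-scaled CPM, whereas sums over marker lists are CPM of total UMIs without TMM. The log2 fold changes are edgeR's. The SE printed beside them was derived from the quasi-likelihood test, as the absolute log2 fold change divided by the square root of its F. DESeq2 1.42.0 was an alternative. UMI counting registers molecules by their ends, so levels are not divided by gene length. The experiment numbers pair the libraries, since the labels give a shared kit per experiment and deviations from group means correlated at 0.784 in all passing cells and 0.499 to 0.665 in the classes. No doublet caller was run, and leaving out cells above the 95th percentile of UMIs in their library was an alternative. The fits were tested on simulated counts with 200 changed genes. In all passing cells, the fit with the block recovered 99.0% of 4-fold changes among 17372 genes with a simulated experiment effect and the fit without it 0%. Of the calls of the fit with the block, 7.91% were false. Without a simulated experiment effect both fits recovered 99.0%. That effect was set in the simulation, so these values do not show which fit suits the data. The planted changes (log2 2) were larger than those of the members in all passing cells (median 0.56, highest 1.86), so the recovery does not apply to smaller changes. Named genes were the 8 members with the highest level, the 5 with the largest and 5 with the smallest fold change relative to the median, those called (12 by adjusted p), the 3 most and 3 least correlated members, the 8 most correlated other genes and pathway genes called. The members and lists were chosen with earlier results of these data known. Each group had n = 2 libraries, which bounds the precision, and a library held 21136369 to 53579969 UMIs. Libraries pooled 3 mice each, and the 2 libraries of a group also differed in experiment and kit version. P-values with condition as the only term measure the spread between those libraries, in which pool, experiment and kit cannot be told apart. With the experiment as block they measure only the spread left once the experiments' shared shift is removed. In the class tests the library is the block, so p-values there measure how class differences vary between the same libraries and not the spread between pools.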

Additional observations from a re-analysis of the deposited data

Results flagged for a closer look

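A set of 7 members had a larger BU effect in Kit-only than in Gfra1-only cells in a test of the difference itself (the interaction term in edgeR), by a log2 value of 1.98 for Rfc1, 2.03 for Gmnn, 2.92 for Fen1, 2.00 for Lig1, 2.80 for Pold1, 1.24 for Slbp and 2.00 for Rfc5. In this test 11.5% of 11772 genes were called (5.62% in that direction) and the median over all genes was 0.29. In Kit-only cells of CTRL 1 and CTRL 2, Fen1 stood at 45.7 and 4.86 CPM, Pold1 at 22.8 and 4.86 and Rfc5 at 45.7 and 9.71. The Kit-only sum of CTRL 1 held 34810 UMIs over all genes, so these levels rest on very few UMIs. The CTRL sums held 4 and 10 cells, in CTRL 2 the 3 cells with a Zbtb16 or Sall4 UMI held 194614 of 220811 UMIs, and the count was 0 without CTRL 2 and 0 without BU 2.

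A set of 3 members moved opposite ways in the 2 experiments over all passing cells, a difference that was not tested. The log2 ratio of BU to CTRL was 1.10 in experiment 1 and -0.37 in experiment 2 for Pola1, -0.037 and 0.20 for Rpa1, and -0.076 and 0.028 for Rpa2.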

How the results depend on the processing

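The module share was higher in BU in each alternative, with differences of group means between 0.0725 and 0.227 percentage points in all passing cells, 0.00692 and 0.172 in Gfra1+, 0.121 and 0.184 in Sox3+, 0.0534 and 0.138 in Stra8+ and 0.0634 and 0.137 in Kit+ cells. Leaving out 1 library set both ends of these ranges, with the lowest value without BU 1 in all passing, Gfra1+ and Stra8+ cells and without CTRL 2 in Sox3+ and Kit+ cells.

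The replicate block, which holds the pairing of libraries by experiment, moved the members called from 0 to 2 in all passing cells, 0 to 15 in Sox3+ and 0 to 2 in Stra8+ cells, and changed no call in Gfra1+ and Kit+ cells. Without the block, Sox3+ cells gave 2 with no filter on low counts, 2 with DESeq2 and 0 to 3 when 1 library was left out. With the block, all passing cells gave 0 without TMM (0.161% of all genes called), 8 in cells with a Zbtb16 or Sall4 UMI (9.8%), 1 at a mitochondrial share under 10% (0.636%), 4 without cells above the 95th percentile of UMIs (8.36%), 6 without the shared barcodes (9.62%) and 0 without spermatid-rich cells (0%). Gfra1+ cells gave 1 with a Zbtb16 or Sall4 UMI, at the mitochondrial limit, without shared barcodes, without spermatid-rich cells and with thinned markers, and 2 with any UMI. Sox3+ cells gave 8 at the mitochondrial limit (4.74%) and 6 without spermatid-rich cells (4.65%). Stra8+ cells gave 0 without TMM, 0 with any UMI and 1 with a Zbtb16 or Sall4 UMI, without spermatid-rich cells and with thinned markers. Kit+ cells gave 2 with any UMI. Where no share of all genes is given here or above, the count alone does not tell such a change from a general change in calls. The settings combined with the block, the shared barcodes and the spermatid limit were chosen after seeing the data.

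For class comparisons, no replicate block gave 4 members for Sox3-only, 0 for Stra8-only and 4 for Kit-only cells, and any UMI gave 2, 0 and 2. No filter gave 15 and cells with a Zbtb16 or Sall4 UMI gave 5 for Kit-only cells. Leaving out 1 library gave 4 to 21, 0 to 7 and 2 to 14. For the interactions, no filter gave 2 for Sox3-only and 11 for Kit-only cells, cells with a Zbtb16 or Sall4 UMI gave 1 for Sox3-only, any UMI gave 0 for Kit-only, and leaving out 1 library gave 0 to 1 and 0 to 13. No share of all genes called is given here for these class settings, so the counts alone do not tell such a change from a general change in calls. The cause of these changes was not tested. Where leaving out a library left 1 sample in a group, that sample was assumed to vary like the others.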
